A study of Homo sapiens with 12 samples.

Results

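The genes described here encode the subunits of the proteasome and were chosen by name: every symbol in the deposited count table made of PSMA, PSMB, PSMC or PSMD followed by digits alone, with PSMB8 and PSMB9 left out. The rule found 37 genes among the 75249 rows used, of which 21177 carried gene symbols: 8 PSMA, 9 PSMB, 6 PSMC and 14 PSMD genes. RNA sequencing libraries came from 2 human metastatic melanoma cell lines, LOX-IMVI BR and A375, each exposed to 6-thio-dG at 5 µM, to BIBR1532 at 25 µM or to a control. Each of these 6 groups had 2 libraries that the labels call biological replicates, 12 in all. 6-thio-dG is a thiopurine nucleoside analog that telomerase can build into telomeres, and BIBR1532 is a small-molecule inhibitor of telomerase. The labels do not say what BR stands for, what the control cells received or how long the exposure lasted.

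The proteasome is the barrel-shaped protease that degrades proteins tagged with ubiquitin. PSMA and PSMB proteins form the rings of its core particle, and PSMB5, PSMB6 and PSMB7 carry the chymotrypsin-like, caspase-like and trypsin-like cutting sites. The regulatory particle on top recognises, unfolds and feeds in substrates: PSMC proteins are its ATPases, and most PSMD proteins its scaffold, ubiquitin receptors and deubiquitinase. In many cells the transcription factor encoded by NFE2L1 raises most subunit genes together when proteasome activity falls short.

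The libraries held between 11813388 and 25822381 counts. Over the members, the LOX-IMVI BR replicates differed from each other less than the A375 replicates. The median absolute log2 difference between replicates over the tested members was 0.047 for LOX-IMVI BR with 6-thio-dG, 0.0441 with BIBR1532 and 0.0364 in the control. In A375 it was 0.469 with 6-thio-dG, 0.13 with BIBR1532 and 0.85 in the control. Over all genes the BIBR1532 replicates differed by a similar median, 0.141 in LOX-IMVI BR and 0.159 in A375. The fitted biological coefficient of variation was 4.55% over the LOX-IMVI BR libraries alone, 36.1% over the A375 libraries alone and 25.8% over all 12. Transcript GC content also separated libraries: the eighth of genes lowest in GC lay at a median log2 deviation of -2.15 from the 12-library mean in A375 6-thio-dG replicate 1 and at -0.149 in replicate 2. Summed melanocyte lineage markers (MITF, SOX10, PMEL, MLANA, TYR, DCT and S100B) were 8.99 to 22.6 CPM in LOX-IMVI BR and 312 to 1463 CPM in A375. TYR was at 0 in both replicates of the BIBR1532 and control groups of both lines, and DCT in those of LOX-IMVI BR. Leukocyte markers summed to 0.328 to 6.58 CPM. Here and below CPM are counts divided by library totals after TMM scaling, which balances the totals between libraries. Log2 fold changes are given ± SE, and genes were called where edgeR's quasi-likelihood test, adjusted over all genes by Benjamini-Hochberg, gave a p below 0.05.

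Of the 37 members, 33 passed the low-count filter and were tested. PSMA8, the testis copy of a core subunit, had at most 1 count in any library, and PSMB11, the catalytic subunit of thymic cortical epithelium, had at most 2. PSMA1 and PSMA4, core subunits that every cell needs, also failed the filter, with at most 3 counts and 1 count in a library. PSMA3, PSMA6 and PSMC6 were tested on 1 to 17, 13 to 37 and 4 to 32 counts a library. Such counts cannot be read as absence of these subunits, and their cause was not tested. In the GENCODE annotation, 24.66% of the exonic bases of PSMA1 overlap another gene, and 0% of those of PSMA3, PSMA4 and PSMC6. PSMC1 shares 75.82% of its exonic bases with NRDE2, and the libraries did not keep strand, so its values are uncertain. The same limit holds to a lesser degree for PSMB10 (34.75% shared), PSMA2 (34.63%), PSMD7 (30.73%), PSMD9 (22.65%) and PSMC5 (19.47%). Overlap with the NONCODE genes of the count table was not checked.

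**Figure D1:**
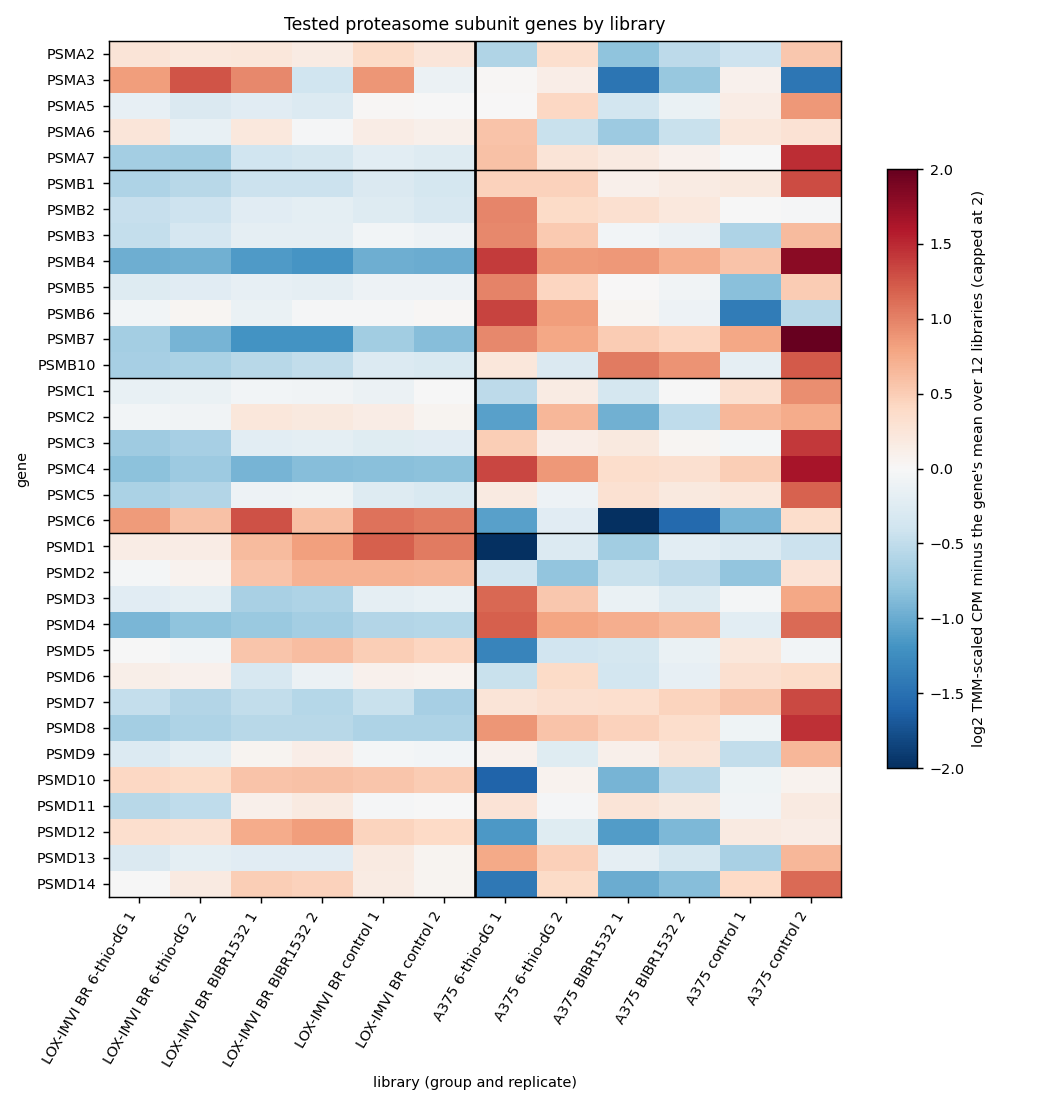
Each row is 1 of the 33 tested members and each column 1 of the 12 libraries; colour gives the log2 TMM-scaled CPM minus the mean of that gene over all libraries, capped at 2. The LOX-IMVI BR replicates look alike, while A375 6-thio-dG replicate 1 and A375 control replicate 2 differ from their partners over many members.

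The map of all tested members by library shows that the genes did not move as 1 block. Together the 37 members took 0.482% and 0.489% of all counts in LOX-IMVI BR with 6-thio-dG, 0.449% and 0.464% with BIBR1532, and 0.451% and 0.455% in the control. In A375 they took 0.863% and 0.829% with 6-thio-dG, 0.618% and 0.607% with BIBR1532, and 0.552% and 0.825% in the control. Both A375 6-thio-dG libraries lay above both control libraries, but 1 of the 2 control libraries came close to them. These shares use unscaled totals. The TMM factors were 1.015 and 1.228 with 6-thio-dG and 1.037 and 0.746 in the control. After TMM scaling the members' median log2 fold change was -0.32, with 24 members below 0 and 9 above. The order of the shares therefore cannot be read as a rise of these genes. With 2 libraries a group no exact test of this share can pass a threshold of 0.05, and none was made. In bulk samples, fewer cells of a type and less RNA per cell cannot be told apart.

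Levels per length, in CPM per kilobase of the longest coding transcript, spread widely among genes whose products mostly enter the complex in equal numbers. The median over the 33 tested members was 35.2 in LOX-IMVI BR with 6-thio-dG, 43.9 with BIBR1532 and 42.1 in the control, and 51, 46.2 and 59.9 in the same groups of A375. PSMD2, a large scaffold of the regulatory particle, led the LOX-IMVI BR control at 412 CPM per kilobase, ahead of the core subunits PSMA7 at 398 and PSMB4 at 360. In the A375 control PSMB4 led at 1782, ahead of PSMA7 at 886 and the ATPase PSMC4 at 520. PSMA3, PSMC6 and PSMA6 stayed under 5 CPM per kilobase in all 6 groups, and PSMB7 did so in the 3 LOX-IMVI BR groups.

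The clearest change among the members was in PSMB6, the caspase-like catalytic subunit, on chromosome 17. In A375 it stood at 402 and 280 CPM with 6-thio-dG, 161 and 147 CPM with BIBR1532 and 59.3 and 107 CPM in the control. Both 6-thio-dG libraries lay above both BIBR1532 libraries, which lay above both control libraries. With BIBR1532 against control PSMB6 had the highest log2 fold change of the members, 0.89, and was not called. With the trend of fold change on transcript GC content removed it gave 0.87 and was called. PSMB6 rose 4.1-fold with 6-thio-dG against control, by a log2 fold change of 2.04 ± 0.32 (n = 2 each; edgeR quasi-likelihood test, Benjamini-Hochberg adjusted p = 0.00113). It passed in all 20 alternatives run, with log2 fold changes of 1.65 to 2.50 and adjusted p of 4.15e-07 to 0.0245; the lowest and highest values came without A375 control replicate 1 and without replicate 2. In LOX-IMVI BR the gene stood at 151 and 162 CPM with 6-thio-dG, 143 and 155 CPM with BIBR1532 and 154 and 159 CPM in the control. The 3 groups overlap, and 6-thio-dG against control gave a fold of 1 (adjusted p = 1).

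The difference between the lines in the 6-thio-dG effect was itself past the threshold for PSMB6. LOX-IMVI BR minus A375 gave -2.04 ± 0.45 on the log2 scale (adjusted p = 0.0159). The call held in 15 of 19 alternatives and was lost without either LOX-IMVI BR control library or either LOX-IMVI BR 6-thio-dG library, where the highest adjusted p was 0.0988. It was the 1 member of 33 called, against a background of 5.54% of all 29114 genes tested, 3.06% lower. The count was 2 without A375 control replicate 1 (8.48% of all genes), 5 without replicate 2 (7.84%), 8 without A375 6-thio-dG replicate 2 (21.8%), and 0 without each of the 4 LOX-IMVI BR libraries just named (1.5% to 1.54%). Markers of cell identity moved in the same A375 comparison: of the melanocyte list, 7 genes of which 5 were tested, PMEL rose by 2.34 and MITF fell by 2.22 on the log2 scale, with summed levels of 576 and 312 CPM with 6-thio-dG, against 571 and 644 CPM in the control. The leukocyte list summed to 4.34 and 6.58 CPM with 6-thio-dG, with CD3E at 0, against 1.5 and 1.63 CPM in the control, and LYZ rose by 2.38, the 1 called of 3 tested. Their part in the PSMB6 result was not tested.

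PSMB6 also took a larger share of the members' own counts. It made up 4.73% and 4.13% of them in A375 with 6-thio-dG, 2.67% and 2.55% with BIBR1532, and 1.11% and 0.968% in the control. This share needs no scaling between libraries, and it too was highest in both 6-thio-dG libraries. In LOX-IMVI BR the share was 3.74% and 3.86% with 6-thio-dG, 2.97% and 3.1% with BIBR1532, and 3% and 3.13% in the control. The 6-thio-dG libraries lay above the others there too, by less, but their CPM overlapped those of the control. The share also moves with the other members: PSMD2 made up 21.2% and 22.1% with 6-thio-dG there, against 27.7% and 27.9% in the control. It therefore cannot be read as a rise of PSMB6 in LOX-IMVI BR. In A375 the share of PSMB5 was higher as well, at 4.98% and 4.25% with 6-thio-dG, against 2.26% and 2.74% in the control. That of PSMA7 was lower, at 8.23% and 8.26%, against 8.74% and 11.7%. The ratio of PSMB6 to PSMB5 counts was 0.949 and 0.972 with 6-thio-dG, 0.744 and 0.724 with BIBR1532, and 0.492 and 0.354 in the A375 control. In LOX-IMVI BR the same ratio was 0.848 and 0.887 with 6-thio-dG, 0.747 and 0.825 with BIBR1532, and 0.776 and 0.796 in the control.

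**Figure D2:**
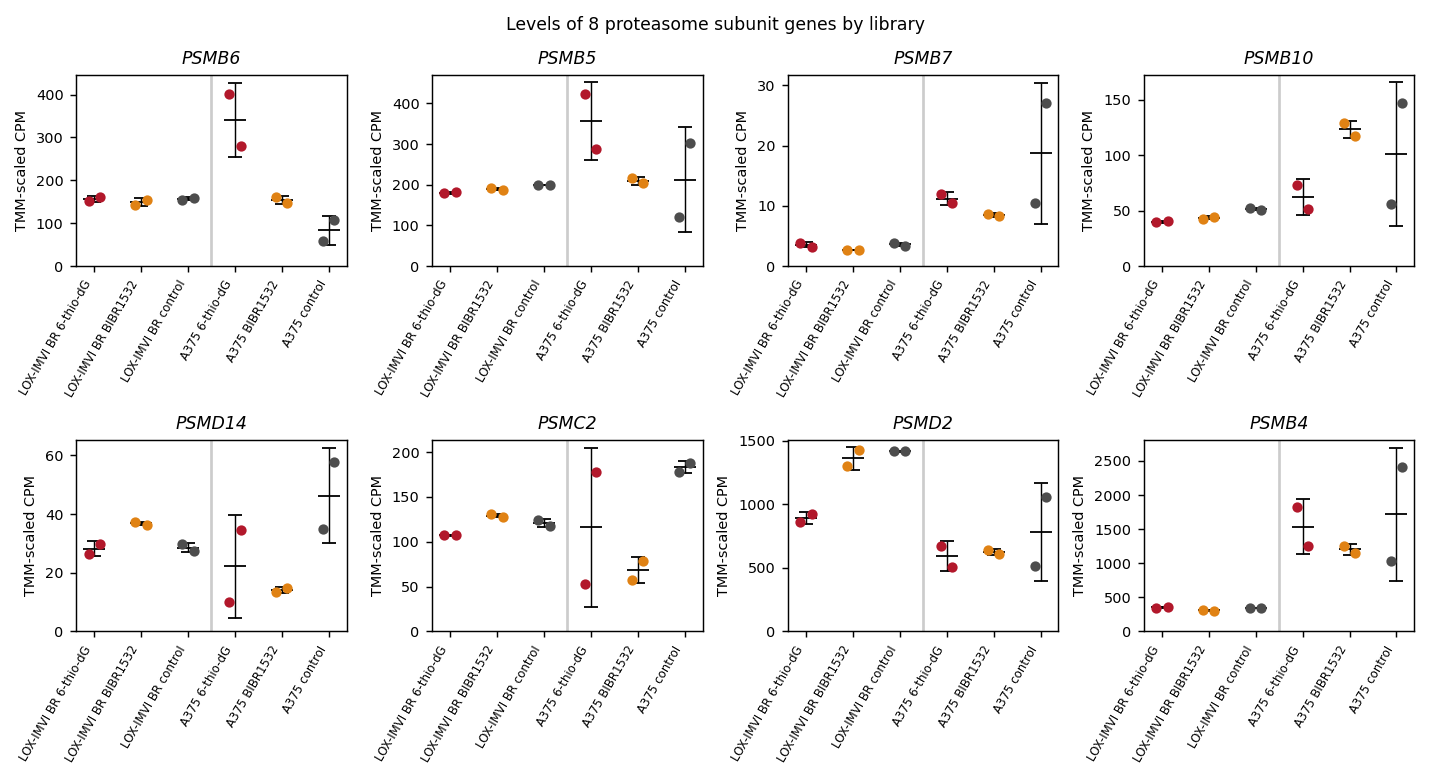
TMM-scaled CPM of 8 members in each library, by line and treatment; points are libraries, the long bar is the mean and the whiskers the SD of 2 libraries. PSMB6 in A375 stands at 402 and 280 CPM with 6-thio-dG and at 59.3 and 107 CPM in the control, and the A375 control libraries lie apart for most of the genes shown.

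The other catalytic subunits did not pass the test in A375 with 6-thio-dG, as the plot of levels by library shows. PSMB5, the chymotrypsin-like subunit and the main target of proteasome inhibitor drugs, had 424 and 288 CPM with 6-thio-dG and 120 and 303 CPM in the control. The ranges overlap, and the log2 fold change was 0.75 ± 0.36 (adjusted p = 0.162). PSMB7, the trypsin-like subunit, had 11.9 and 10.5 CPM with 6-thio-dG and 10.5 and 27 CPM in the control, with -0.73 ± 0.37 (adjusted p = 0.183). PSMB10, which takes the place of PSMB7 in the immunoproteasome, had 73.3 and 51 CPM with 6-thio-dG and 55.5 and 147 CPM in the control. Its log2 fold change was -0.71 ± 0.38 (adjusted p = 0.205). With the GC trend removed PSMB10 gave -0.78 and was called. Among these 4 catalytic genes PSMB6 was the one whose 6-thio-dG libraries both lay above both control libraries.

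PSMB6 was the 1 of 33 members that rose in A375 with 6-thio-dG and none fell, where 18.1% of all tested genes were called and 9.86% were called higher. The median log2 fold change was -0.32 over the members, 0.03 over all tested genes and -0.25 over the symbol-named ones. With TMM scaling 24 of the 33 members had values below 0, and with upper-quartile scaling, where the members' median was 0.07, 13 did. With the GC trend removed the members' median was 0.01, with 17 members above 0 and 16 below. The median was -0.67 without A375 control replicate 1 and 0.19 without control replicate 2. Unadjusted p was under 0.05 for 2 members above 0 and 6 below it. The count rested on single libraries: without A375 control replicate 1 it was 1 higher and 11 lower (19.2% of all genes called), without control replicate 2 it was 7 higher and 0 lower (14.5%), and without 6-thio-dG replicate 2 it was 2 higher and 8 lower (32.8%, a share close to the members'). Fitted to the A375 libraries alone, PSMB6 was again the 1 member called, against a background of 5.11% either way and 3.08% higher. The median over the tested PSMB genes was 0.23, and over the PSMC ATPases it was -0.6. PSMD4, a ubiquitin receptor of the regulatory particle, had 544 and 410 CPM with 6-thio-dG and 205 and 521 CPM in the control, and did not pass (0.39 ± 0.36, adjusted p = 0.462).

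**Figure D3:**
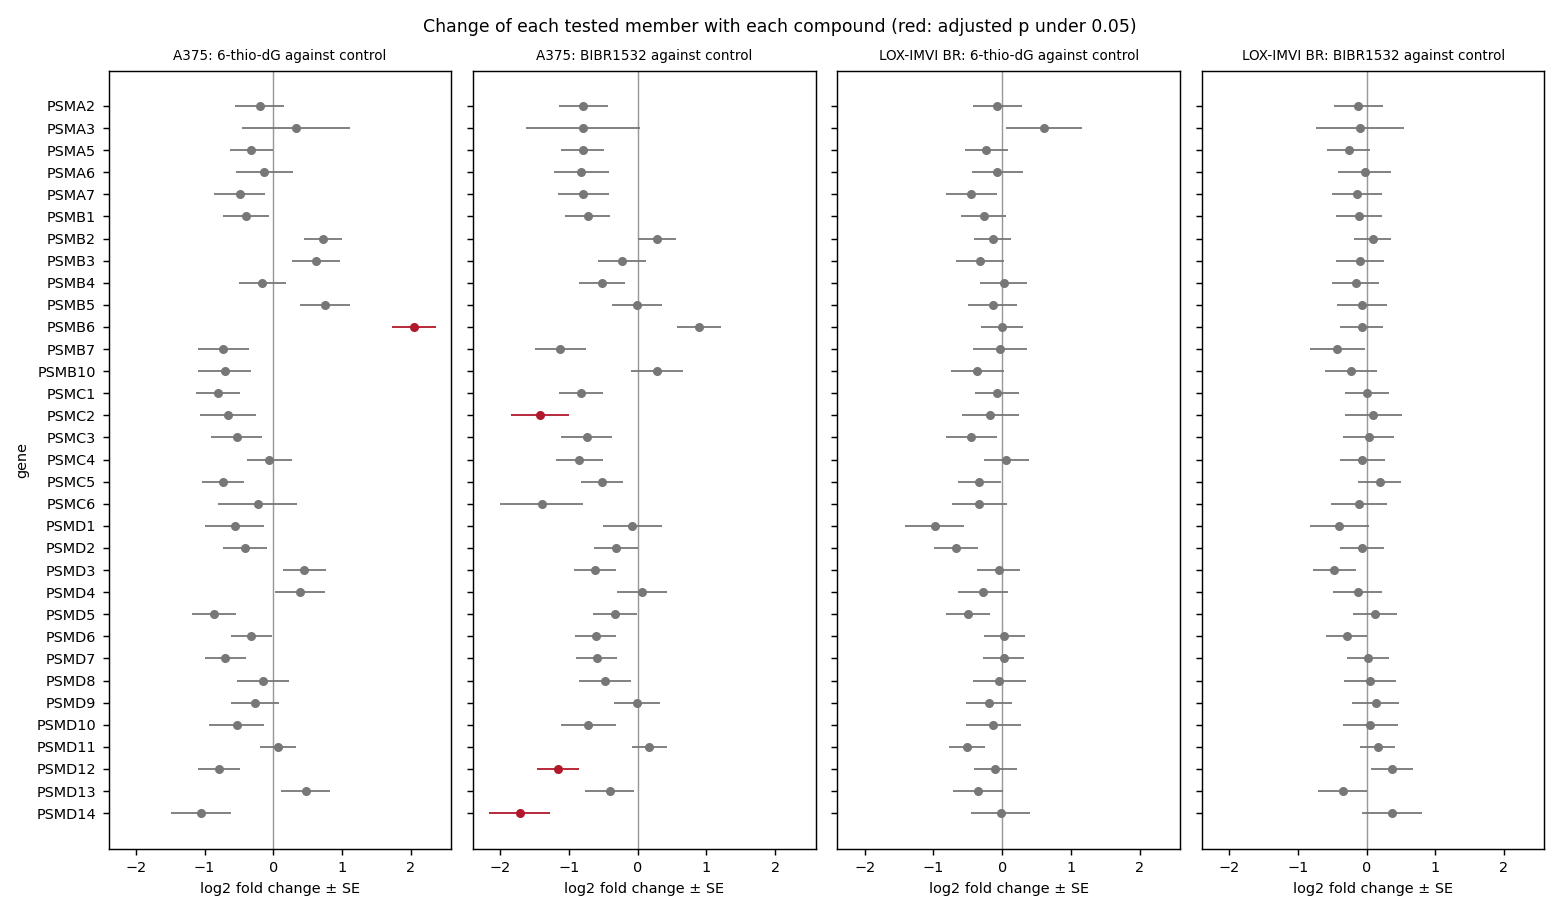
Log2 fold change ± SE of each tested member with each compound against control, in A375 and LOX-IMVI BR; red marks an adjusted p under 0.05. PSMB6 at 2.04 with 6-thio-dG in A375 and PSMD14 at -1.72 with BIBR1532 in A375 are the most distant points from 0 among those called.

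With BIBR1532, 3 genes of the regulatory particle fell in A375. PSMD14, the deubiquitinase that cuts ubiquitin chains from substrates, had 13.3 and 14.7 CPM with BIBR1532, against 34.8 and 57.7 CPM in the control. It fell by 1.72 ± 0.45 on the log2 scale (adjusted p = 0.0203). PSMD12, a scaffold of the regulatory particle lid, had 42.7 and 49.8 CPM with BIBR1532, against 105 and 102 CPM in the control (-1.16 ± 0.31, adjusted p = 0.0231). PSMC2, an ATPase of the base, had 57.8 and 78.8 CPM with BIBR1532, against 178 and 188 CPM in the control (-1.42 ± 0.42, adjusted p = 0.0341). In all 3 genes both BIBR1532 libraries lay below both control libraries. These were the 3 members of 33 called, 0 of them higher, against a background of 15.8%, with 7.29% of all genes called lower. The median was -0.61 over the members, -0.04 over all tested genes and -0.15 over the symbol-named ones, and 28 of 33 members had values below 0. That picture rested on A375 control replicate 2: without it the members' median was -0.16, with 15 members above 0 and 18 below.

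Markers of cell identity moved in the same comparison. Of the melanocyte list 3 of 5 tested genes rose (SOX10 by 1.27, S100B by 1.33 and PMEL by 3.59 on the log2 scale) and MITF fell by 2.32. The list summed to 1463 and 1301 CPM with BIBR1532, against 571 and 644 CPM in the control, with TYR at 0 in both groups. Of 3 tested leukocyte genes LYZ rose by 1.69, with summed levels of 3.14 and 3.44 CPM with BIBR1532, where CD3E was at 0, against 1.5 and 1.63 CPM in the control. Of 3 fibroblast genes PDGFRB rose by 1.27, with summed levels of 19.8 and 18.6 CPM with BIBR1532, against 8.26 and 9.6 CPM in the control. The part of these markers in the falls of the members was not tested.

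The calls for these 3 genes depended on the setting. PSMD14 was called in 16 of 20 alternatives, PSMD12 in 15 and PSMC2 in 8. All 3 lost their calls without either BIBR1532 library, PSMD14 also without control replicate 2, and PSMC2 without either control library or any single LOX-IMVI BR library. In the A375 libraries alone 0 members were called (3 at an unadjusted p under 0.05), against a background of 3.85%, with an adjusted p of 0.127 for PSMD14 and 0.151 for PSMD12. Their transcript GC contents were 45.29%, 37.9% and 38.87%. With the trend of fold change on GC removed, PSMD14 gave -1.54 (adjusted p = 0.0146) and PSMC2 -0.49 (adjusted p = 0.0171), while PSMD12 gave -0.09 (adjusted p = 0.806). In A375 with 6-thio-dG the same 3 genes had 9.85 and 34.6, 41.5 and 77.8, and 52.7 and 178 CPM, so replicate 1 lay well below replicate 2 in each. Without BIBR1532 replicate 1 or 2 the count of members called with BIBR1532 was 0 (2.97% and 3.11% of all genes called). Without control replicate 1 it was 0 higher and 18 lower (16.7%), and without control replicate 2 the direction turned, with 3 higher and 1 lower (9.88%). Without 6-thio-dG replicate 1 or 2 the members' median was -0.6 and -0.61, and without either LOX-IMVI BR control library it was -0.6.

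**Figure D4:**
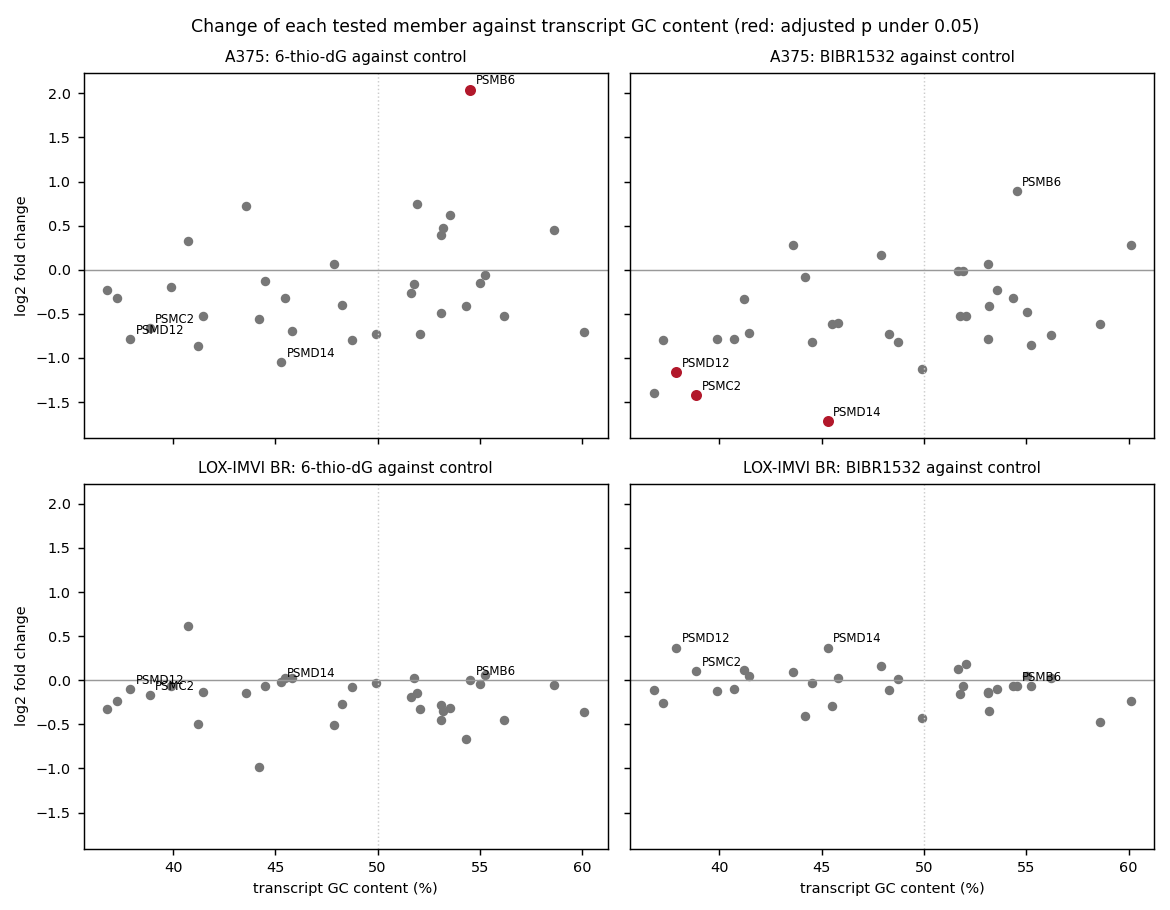
Log2 fold change of each tested member with each compound against control, against the GC content of its longest coding transcript; red marks an adjusted p under 0.05 and the dotted line stands at 50%. In A375 with BIBR1532 the members called are all under 50% GC, and PSMB6, at 54.54%, is the highest point in both A375 panels.

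The plot against GC content shows that members under 50% GC had the lower median in A375, while single members of the 2 classes overlapped. Fitted to the A375 libraries alone with BIBR1532, PSMC4 at 55.25% GC gave -0.85 and PSMB2 at 43.59% gave 0.28. With BIBR1532 against control the median was -0.79 over the 18 tested members under 50% GC and -0.41 over the 15 at or above it. With 6-thio-dG it was -0.46 and -0.15. In LOX-IMVI BR the order was opposite with 6-thio-dG, at -0.12 and -0.28, and the medians were close with BIBR1532, at -0.01 and -0.07. The part of GC content in the calls was not tested apart from the alternative above.

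Promoters are shown for the 3 genes called with BIBR1532 and for PSMD3, which differed between the compounds, to set their letters beside the values. They are the 250 bases before the RefSeq start in GRCh38.p14, 5′ to 3′ on the gene's strand: PSMD14 at chr2:161308175-161308424 (plus), PSMD12 at chr17:67366578-67366827 (minus), PSMC2 at chr7:103347393-103347642 (plus) and PSMD3 at chr17:39980557-39980806 (plus). Capitals mark matches, on either strand, to CCAAT (bound by NF-Y) or TGACNNNGC (the core of the antioxidant response element, which NFE2L1 and NFE2L2 bind); the 2 CCAAT matches in PSMD14 overlap on opposite strands.
PSMD14: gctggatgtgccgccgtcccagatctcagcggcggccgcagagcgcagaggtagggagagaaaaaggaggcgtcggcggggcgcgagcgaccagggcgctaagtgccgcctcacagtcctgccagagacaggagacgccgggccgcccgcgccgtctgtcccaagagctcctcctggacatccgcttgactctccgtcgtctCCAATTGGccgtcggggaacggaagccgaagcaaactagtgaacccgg
PSMD12: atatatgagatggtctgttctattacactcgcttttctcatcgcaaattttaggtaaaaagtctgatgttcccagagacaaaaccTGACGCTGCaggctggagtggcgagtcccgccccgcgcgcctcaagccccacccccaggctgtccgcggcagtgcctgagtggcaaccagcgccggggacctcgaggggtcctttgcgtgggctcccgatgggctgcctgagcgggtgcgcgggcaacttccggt
PSMC2: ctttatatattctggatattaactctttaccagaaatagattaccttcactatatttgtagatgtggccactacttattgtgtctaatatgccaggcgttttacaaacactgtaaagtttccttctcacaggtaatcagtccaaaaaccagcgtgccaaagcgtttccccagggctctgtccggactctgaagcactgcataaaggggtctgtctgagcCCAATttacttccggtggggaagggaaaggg
PSMD3: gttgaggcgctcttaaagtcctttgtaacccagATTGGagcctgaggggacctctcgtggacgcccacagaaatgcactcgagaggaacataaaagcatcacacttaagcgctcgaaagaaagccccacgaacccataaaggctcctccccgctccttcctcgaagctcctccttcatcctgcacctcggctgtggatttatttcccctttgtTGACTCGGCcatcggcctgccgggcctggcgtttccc
Of the members, 32 of 37 were matched to a promoter. PSMB6, PSMA7, PSMB1, PSMB7 and PSMD4 were not, so no promoter of PSMB6 is shown and these genes are outside the shares below. CCAAT was found in 15 of the 32 (46.9%) and in 33% of all 27305 promoters of that length; TGACNNNGC was in 5 (15.6%) and in 11%; and CACGTG, the E-box, was in 2 (6.25%) and in 6.49%. A match is a description of these letters and says nothing of binding.

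Against each other, the compounds separated 2 members in A375, of 33, both higher with 6-thio-dG than with BIBR1532, against a background of 16% of all genes and 7.26% called higher. PSMB6 was higher by 1.15 ± 0.32 (adjusted p = 0.0229), with the values given above. PSMD3, a lid scaffold, had 690 and 454 CPM with 6-thio-dG and 283 and 261 CPM with BIBR1532, with no overlap (1.07 ± 0.31, adjusted p = 0.0302). It was called in 8 of 20 alternatives, and PSMB6 in 16. In the A375 libraries alone 0 members were called (2 at an unadjusted p under 0.05), against a background of 6.68%. The count was 0 without A375 BIBR1532 replicate 1 or 2 (5.31% and 6.14% of all genes called), 7 without either control library (20% and 19.8%), 6 without either 6-thio-dG library (25.8% and 21.1%) and 1 without any single LOX-IMVI BR library (11.2% to 12.1%). PSMB10 had 73.3 and 51 CPM with 6-thio-dG, against 129 and 117 CPM with BIBR1532 (-0.98 ± 0.38, adjusted p = 0.091). With the GC trend removed PSMB10 gave -1.07 and was called, as was PSMB5.

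In LOX-IMVI BR no member passed the test with 6-thio-dG. The 0 of 33 called compares with a background of 17%; 1 member had an unadjusted p under 0.05, and DESeq2 called 0. PSMD1, a large scaffold of the base, had 40.4 and 40.6 CPM with 6-thio-dG, against 84 and 75.3 CPM in the control (-0.98 ± 0.43, adjusted p = 0.14). PSMD2, its partner in the base, had 858 and 924 CPM with 6-thio-dG, against 1423 and 1417 CPM in the control (-0.67 ± 0.32, adjusted p = 0.175). The 2 replicates of each group lay close and the groups apart, yet the fit over all 12 libraries takes its spread from the A375 libraries as well. Fitted to the 6 LOX-IMVI BR libraries alone, 16 members were lower and 0 higher, against a background of 62.8% either way and 30.8% lower. In that fit PSMD1 gave -0.96 (adjusted p = 7.74e-14) and PSMD2 -0.66 (adjusted p = 1.38e-12). In the fit over the lines together, the members' median was -0.16 when either A375 control library or either A375 6-thio-dG library was left out. The members' median was -0.14, against -0.13 over the symbol-named genes, with TMM scaling, and the members' median was 0.09 with upper-quartile scaling. The labels call the replicates biological but do not say whether they came from separate cultures. These p-values, and those of all other fits in both lines, measure the spread between the libraries, which may be technical.

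With BIBR1532 in LOX-IMVI BR 0 of 33 members were called, against a background of 3.59%; 0 had an unadjusted p under 0.05, and DESeq2 called 0. PSMD3 had 198 and 202 CPM with BIBR1532, against 274 and 281 CPM in the control (-0.47 ± 0.31, adjusted p = 0.53). PSMD12 had 155 and 165 CPM with BIBR1532, against 126 and 122 CPM in the control (0.37 ± 0.31, adjusted p = 0.652). Both pairs of groups were apart. In the LOX-IMVI BR libraries alone 3 members were higher and 14 lower, against a background of 44.8% either way, 23.1% higher and 21.8% lower. The difference between lines in the BIBR1532 effect called 0 of 33 members, with 3.64% of all genes called, 4 members at an unadjusted p under 0.05 and 2 by DESeq2. PSMD14 and PSMD12 came nearest, at 2.09 ± 0.62 (adjusted p = 0.0735) and 1.53 ± 0.44 (adjusted p = 0.0647) for LOX-IMVI BR minus A375. PSMB6 had the lowest value, -0.96. With the GC trend removed PSMB6 (-0.92) and PSMD14 (1.8) were called. The count of called members was 6 without A375 control replicate 1 (7.19% of all genes called), 2 without replicate 2 (4.13%), and 3 without either A375 6-thio-dG library (16.2% and 16.4%).

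Between the compounds in LOX-IMVI BR 0 of 33 members were called, against a background of 20.6%; 1 had an unadjusted p under 0.05, and DESeq2 called 1. PSMD11, a lid scaffold, had 111 and 115 CPM with 6-thio-dG, against 175 and 185 CPM with BIBR1532 (-0.67 ± 0.26, adjusted p = 0.0835). PSMD5, a chaperone that helps assemble the base, had 52.8 and 51.1 CPM with 6-thio-dG, against 78.4 and 81.4 CPM with BIBR1532 (-0.62 ± 0.32, adjusted p = 0.191). The groups did not overlap for either gene. In the LOX-IMVI BR libraries alone 6 members were higher and 13 lower with 6-thio-dG, against a background of 66.9% either way, 33.9% higher and 33% lower. In the fit over all libraries the members' median was -0.15, and -0.16 or -0.17 without any 1 of the 4 A375 control and 6-thio-dG libraries.

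The control libraries of the 2 lines differed in 15 of 33 members, 4 higher and 11 lower in LOX-IMVI BR than in A375, against a background of 49.8% either way, 21.1% higher and 28.8% lower. The share of members called was close to that of all genes. PSMB4, a structural core subunit, had 349 and 345 CPM in LOX-IMVI BR and 1028 and 2406 CPM in A375 (-2.31 ± 0.36, adjusted p = 0.000101). PSMB7 had 3.77 and 3.41 CPM in LOX-IMVI BR and 10.5 and 27 CPM in A375 (-2.37 ± 0.39, adjusted p = 0.000166). It had 39 to 298 counts a library over all groups, and its low level in LOX-IMVI BR cannot be read as near absence of the subunit. PSMC4, an ATPase, had 204 and 206 CPM in LOX-IMVI BR and 511 and 1142 CPM in A375 (-2.01 ± 0.35, adjusted p = 0.000242). PSMD7, the lid partner of PSMD14, had 27.9 and 24 CPM in LOX-IMVI BR and 55.7 and 95.3 CPM in A375 (-1.54 ± 0.31, adjusted p = 0.00087). These 4 genes were called in all 19 alternatives, but their size rested on the A375 control libraries. Without A375 control replicate 1 they gave -2.79 (PSMB4), -2.90 (PSMB7), -2.47 (PSMC4) and -1.87 (PSMD7), and without replicate 2 -1.56, -1.54, -1.31 and -1.09. The lines also differ in lineage markers, and which part of the difference comes from the line, its state or the library cannot be told apart.

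The remaining genes lower in LOX-IMVI BR were PSMD8, PSMB1, PSMC5, PSMD4, PSMA7, PSMC3 and PSMB10, with log2 fold changes of -1.50 to -0.98. The genes higher in LOX-IMVI BR were PSMD1 (84 and 75.3 CPM in LOX-IMVI BR, 30.3 and 27 CPM in A375; 1.47 ± 0.44, adjusted p = 0.0113), PSMC6, PSMB6 (0.91 ± 0.32) and PSMD2. PSMC6 rested on 4 to 32 counts a library over all groups, and its log2 fold change ran from 0.46 to 1.97 over the alternatives. PSMD2 had 1423 and 1417 CPM in LOX-IMVI BR and 511 and 1058 CPM in A375 (0.86 ± 0.32, adjusted p = 0.0375), and was called in 7 of 19 alternatives, with 0.43 without A375 control replicate 1 and 1.48 without replicate 2. All 4 lost their calls without A375 control replicate 1 and without LOX-IMVI BR control replicate 1, and PSMD1 also without A375 control replicate 2; PSMC6, PSMB6 and PSMD2 lost theirs without LOX-IMVI BR control replicate 2. Without A375 control replicate 1 the count was 0 higher and 16 lower (43.4% of all genes called), and without replicate 2 it was 5 higher and 4 lower (41.4%). Without LOX-IMVI BR control replicate 1 or 2 it was 5 and 6 in all (33.5% and 32.4%).

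**Figure D5:**
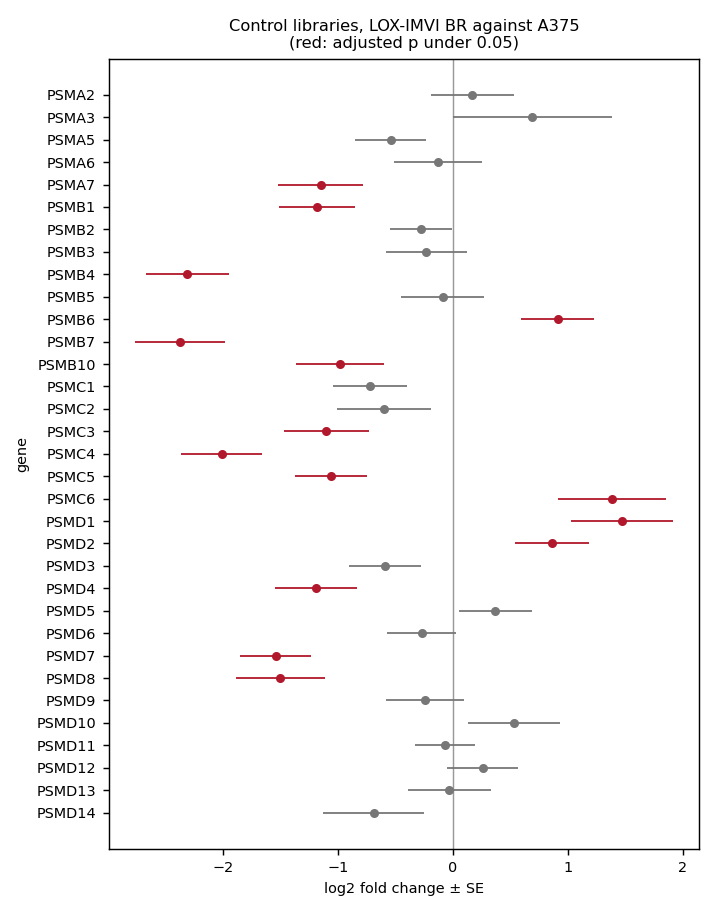
Log2 fold change ± SE of each tested member between the control libraries, LOX-IMVI BR against A375; red marks an adjusted p under 0.05. PSMB4, PSMB7 and PSMC4 lie near or beyond -2 and PSMD1 and PSMC6 near 1.4.

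Of the 2 immunoproteasome genes left out of the members, PSMB8 and PSMB9, 1 fell in LOX-IMVI BR with 6-thio-dG, where 17% of all genes were called. PSMB10, also of the immunoproteasome, was a member and was not called there. PSMB9, which takes the place of PSMB6 in that form, had 3.29 and 4.41 CPM with 6-thio-dG, against 26.8 and 26.5 CPM in the control, and fell by 2.79 ± 0.42 on the log2 scale (adjusted p = 0.000538). Both 6-thio-dG libraries lay far below. PSMB8, which takes the place of PSMB5, had 39.1 and 45.7 CPM with 6-thio-dG and 77.8 and 76.1 CPM in the control (-0.86, adjusted p = 0.136). PSMB9 was also lower with 6-thio-dG than with BIBR1532, in LOX-IMVI BR (-3.34 ± 0.43, adjusted p = 0.000104) and in A375 (-1.36 ± 0.40, adjusted p = 0.0302). The LOX-IMVI BR calls held in all 20 alternatives and the A375 call in 15. The A375 call was lost with upper-quartile factors, in the A375 libraries alone, and without 6-thio-dG replicate 2 or either BIBR1532 library. For the 6-thio-dG effect, LOX-IMVI BR minus A375 gave -2.16 ± 0.56 for PSMB9 (adjusted p = 0.0365), a call kept in 9 of 19 alternatives. The value was -1.60 without A375 control replicate 1 and -3.05 without replicate 2. This call was lost with DESeq2 size factors, without A375 6-thio-dG replicate 1, without either A375 BIBR1532 library and without any single LOX-IMVI BR library.

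Other markers moved in the same LOX-IMVI BR comparison. PTPRC, a leukocyte gene, had 2.33 and 1.35 CPM with 6-thio-dG, against 0.151 and 0.137 CPM in the control (3.61 ± 0.58, adjusted p = 0.000834), the 1 called of 3 tested leukocyte genes. That list summed to 2.81 and 1.76 CPM with 6-thio-dG, against 0.452 and 0.455 CPM in the control, with CD3E at 0 in both groups. PDGFRA, a fibroblast gene, had 5.01 and 5.21 CPM with 6-thio-dG, against 56.9 and 55.3 CPM in the control (-3.46 ± 0.31, adjusted p = 1.06e-05). PDGFRB fell too, by 1.39, so 2 of 3 fibroblast genes were lower and the list summed to 6.66 and 6.97 CPM with 6-thio-dG, against 61.2 and 58.9 CPM in the control. The 5 tested melanocyte genes had 0 called, and the part of all these markers in the PSMB9 result was not tested.

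Over the 7 pathway lists together, 43 genes were tested. With 6-thio-dG in A375, 1 of them rose and 5 fell, 14% against 18.1% of all genes, so the share called was near the background. In A375 with 6-thio-dG, 1 of 5 activator and inhibitor genes fell: PSME4, an activator cap, had 12.3 and 43.4 CPM with 6-thio-dG, against 104 and 56.9 CPM in the control (-1.53 ± 0.47, adjusted p = 0.0373). PSMG3 was the 1 of 5 tested assembly chaperones that fell, with 123 and 71.1 CPM with 6-thio-dG, against 143 and 246 CPM in the control (adjusted p = 0.0494), and KIAA0368, a proteasome adaptor, the 1 of 12 tested genes of ubiquitin handling (-1.46 ± 0.39, adjusted p = 0.019). Of 7 genes of transcriptional control 2 fell: NGLY1, the glycanase that helps activate the NFE2L1 protein (-1.30 ± 0.36, adjusted p = 0.022), and MAFF, a small Maf protein that pairs with such factors (-1.09 ± 0.36, adjusted p = 0.048). In each of these genes both 6-thio-dG libraries lay below both control libraries. Of 20 alternatives KIAA0368 was called in 16, NGLY1 in 15, PSME4 in 8, and PSMG3 and MAFF in 7 each. The list of 6 genes with the VCP unfoldase and its partners also held SQSTM1, an autophagy receptor for ubiquitinated cargo, and SQSTM1 alone was called. It had 6472 and 4561 CPM with 6-thio-dG, against 1280 and 2970 CPM in the control (1.38 ± 0.34, adjusted p = 0.0145). SQSTM1 was called in 18 of 20 alternatives. In the A375 libraries alone SQSTM1 and the 5 genes that fell all lost their calls. Single A375 libraries moved these values: SQSTM1 gave 0.88 without control replicate 1 and 2.09 without control replicate 2, and lost its call without 6-thio-dG replicate 1 (1.10, adjusted p = 0.0725). The falls of PSME4, KIAA0368 and NGLY1 lost their calls without 6-thio-dG replicate 1, those of PSME4 and KIAA0368 also without control replicate 1, those of PSME4, PSMG3, MAFF and NGLY1 without control replicate 2, and those of PSMG3 and MAFF without 6-thio-dG replicate 2.

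In A375 with BIBR1532, 3 of the 43 pathway genes fell and 0 rose, 6.98% against 15.8% of all genes. UCHL5, a deubiquitinase of the regulatory particle, had 22.8 and 29.7 CPM with BIBR1532, against 60 and 72.9 CPM in the control (-1.34 ± 0.43, adjusted p = 0.0484); with the GC trend removed it gave 0.06 (adjusted p = 0.82), and it was called in 5 of 20 alternatives. PSMG2, a chaperone of core assembly, had 1.08 and 1.02 CPM with BIBR1532, against 2.36 and 2.17 CPM in the control (-1.12 ± 0.35, adjusted p = 0.0431). RPS27A, which encodes ubiquitin fused to a ribosomal protein, had 1.75 and 1.75 CPM with BIBR1532, against 4.67 and 7.7 CPM in the control (-1.80 ± 0.37, adjusted p = 0.00581). PSMG2 was called in 4 of 20 alternatives and RPS27A in 17, and both rest on low counts. UCHL5, PSMG2 and RPS27A all lost their calls in the A375 libraries alone.

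In LOX-IMVI BR with 6-thio-dG, 3 of the 43 pathway genes fell and 0 rose, 6.98% against 17% of all genes. Beside PSMB9 they were 1 of 5 activator and inhibitor genes and 1 of 6 ubiquitin and E1 genes. PSME2, part of an interferon-induced activator cap, had 11.6 and 10.2 CPM with 6-thio-dG, against 27.3 and 26.9 CPM in the control (-1.31 ± 0.37, adjusted p = 0.0246). UBA6, an enzyme that activates ubiquitin, had 53.7 and 52.5 CPM with 6-thio-dG, against 196 and 192 CPM in the control (-1.87 ± 0.58, adjusted p = 0.04). PSME2 was called in 15 and UBA6 in 9 of 20 alternatives. With BIBR1532 1 of the 43 genes was called, 2.33% against 3.59% of all genes: MAFF rose in LOX-IMVI BR, to 125 and 78.1 CPM with BIBR1532, against 37.9 and 33.5 CPM in the control (1.51 ± 0.36, adjusted p = 0.0309), a call kept in 11 of 20 alternatives. Between the compounds in LOX-IMVI BR, 4 of the 43 genes were called, all lower with 6-thio-dG, 9.3% against 20.6% of all genes. They were PSMB9, PSME2, PSMG1 and NFE2L1. NFE2L1 itself had 381 and 420 CPM with 6-thio-dG, against 1218 and 1062 CPM with BIBR1532, in LOX-IMVI BR (-1.51 ± 0.31, adjusted p = 0.0031). NFE2L1 was called in 0 of the comparisons against control.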

How the data were processed

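The authors deposited raw gene counts of the 12 libraries in 1 table. Their roles unstated, STAR, Picard, GATK, featureCounts 1.5.1, hg19 and GRCh37 appear in the submitters' processing notes. Per the labels' protocols TRIzol was used for RNA and the library kit was not strand-specific. Of 75253 rows, 4 with ambiguous date names were dropped, and 54072 were NONCODE genes. Total counts were 11813388 to 25822381, and intervals from counts would cover counting error only.

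Genes were filtered with filterByExpr, scaled by TMM and tested in R 4.3.3 with edgeR 4.0.16 (limma 3.58.1), as robust quasi-likelihood with 1 mean per group over all 12 libraries and 6 residual degrees of freedom; calls used Benjamini-Hochberg adjusted p-values over all 29114 tested genes, of which 14439 carried symbols. DESeq2 1.42.0 was an alternative. Alternatives were other scalings, no filter, the libraries of 1 line alone, a replicate block, a GC trend removed, and each library left out; symbol-named genes alone was chosen after seeing the data. Lengths and GC content came from GENCODE 29 and promoters from RefSeq GRCh38.p14. Members were chosen by symbol, and genes named in full were the catalytic subunits, PSMD4, PSMD14, PSMA8 and PSMB11, up to 4 called members in each direction of each comparison, or the 2 with the smallest p; of the pathway lists, called genes. The remaining called members were named with the range of their values. The members and lists were chosen with earlier results of these data known.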

Additional observations from a re-analysis of the deposited data

Results flagged for a closer look

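The 6-thio-dG effect on PSMB6 differed between the lines, by -2.04 ± 0.45 on the log2 scale for LOX-IMVI BR minus A375 (edgeR quasi-likelihood, adjusted p = 0.0159). It was singled out because the difference itself passed the test. The same difference for PSMB9, an immunoproteasome gene, was -2.16 ± 0.56 (adjusted p = 0.0365) and passed as well. For PSMB6, the LOX-IMVI BR 6-thio-dG and control groups overlapped in CPM, while both A375 6-thio-dG libraries lay above both A375 control libraries.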

How the results depend on the processing

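The share of all genes called moved with the processing. With 6-thio-dG against control in A375 it was 5.11% in that line's libraries alone and 18.1% in the main fit. In LOX-IMVI BR it was 62.8% and 17%. With the GC trend removed, 5028 of 14363 genes were called in A375 with 6-thio-dG and 4600 with BIBR1532. Counts of called members moved too in most comparisons, and they describe the processing, not the members. Against control in A375, 6-thio-dG gave 3 with upper-quartile factors, 2 with the DESeq2 test, 6 without the filter, 4 with the GC trend removed and 2 with symbol-named genes alone; BIBR1532 gave 6 without the filter, 0 in the A375 libraries alone and 7 with the GC trend removed. Against control in LOX-IMVI BR, 6-thio-dG gave 1 without the filter and 16 in that line's libraries alone, and BIBR1532 gave 17 there. Between compounds, A375 gave 1 with DESeq2 size factors, 0 in its libraries alone and 9 with the GC trend removed; LOX-IMVI BR gave 1 with the DESeq2 test, 19 in its libraries alone and 2 with the GC trend removed. The BIBR1532 difference between lines gave 2 with the DESeq2 test, 3 without the filter and 2 with the GC trend removed. Leaving out each library in turn gave 1 to 12 and 0 to 18 in A375, 0 to 2 and 0 to 0 in LOX-IMVI BR (6-thio-dG and BIBR1532 against control), 0 to 7 and 0 to 3 between compounds in A375 and LOX-IMVI BR, 0 to 8 and 0 to 6 for the differences between lines, and 5 to 19 between the controls. Upper-quartile factors moved the median log2 fold change of all genes by -0.35 (BIBR1532 difference between lines) to 0.39 (A375 with 6-thio-dG); higher calls there were then 80% of all calls, against 54.6% with TMM, and likewise 66.4 against 53.8% with BIBR1532 and 60.1 against 45.3% between compounds, and in LOX-IMVI BR 73.5 against 57.8% with 6-thio-dG and 69.5 against 48% between compounds. For the BIBR1532 difference between lines it was 38.1 against 57.5%. The share of counts became 0.524, 0.479 and 0.475% in LOX-IMVI BR (6-thio-dG, BIBR1532, control) and 0.91 and 0.65% in A375 (6-thio-dG, BIBR1532) over symbol-named genes, and the median level per length became 64, 78.7 and 76.1, and 77.2, 60.2 and 89.4, in the same order with the control last, with mean transcript length. The replicate numbers share no stated batch or day; with them as a replicate block the control comparison gave 4 higher and 10 lower. UCHL5 in A375 with BIBR1532 turned to 0.06 with the GC trend removed. The cause of these moves was not tested.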
